A study of Mus musculus with 18 samples.

Results

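Cytosolic ribosomal proteins are the protein subunits of the ribosome that translates nuclear-encoded messages. They are made in near-equal amounts from genes scattered over the genome, and most of their mRNAs carry a 5′ terminal oligopyrimidine (TOP) tract through which the mTOR pathway controls their translation. The genes described here were those whose single platform symbol was that of a ribosomal protein of the small or large subunit, with Rps6 kinases and pseudogenes left out, and each gene was read from its probe set of highest mean over the 18 arrays. This rule gave 48 genes among 12393 named genes: 20 of the small subunit, 20 of the large subunit, 2 of the stalk of the large subunit (Rplp0 and Rplp2), and 6 paralogs of subunit genes (Rpl3l, Rpl7l1, Rpl22l1, Rpl39l, Rps4l and Rps27l). The 48 genes had 100 probe sets in all, 23 genes having several. A further 102 probe sets named a ribosomal protein together with another gene and were no members, so that 28 ribosomal proteins, among them Rpl3, Rpl5 and Rplp1, were not represented.

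The arrays measured total RNA from retinas of Balb/cJ mice, an albino strain, that had been detached by injecting fluid under the retina. The injected volume was 1 µL, either 10 µM INS37217 in saline (a P2Y2 receptor agonist) or saline alone. Retinas were taken 2 h, 24 h and 7 d after injection, with 3 Affymetrix arrays per treatment and time, each from a separate pool of more than 5 retinas. All retinas had therefore been detached, and no undetached retina was compared. The genes of a retina's cell types are mixed in such a pool, so that fewer cells of a type and less RNA per cell cannot be told apart. Values are deposited log2 RMA values, on which 1 unit is a factor of 2, and levels are compared only within a probe set.

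Facts of the arrays bear on every result below. The 5 rod marker genes measured averaged 12.62 in INS37217 retinas and 12.56 in saline retinas at 2 h and 11.83 to 11.95 at the later times. These values are near the upper end of the array range (2.83 to 14.15). Of the 5, 3 fell at 24 h against 2 h in each treatment, where 3.3% (INS37217) and 2.93% (saline) of all probe sets fell. Groups were taken from the titles, since 8 of the 9 INS37217 arrays have a source name that mentions saline only. One array, saline 7 d replicate 2, has 2 h in its source name and is used as 7 d, where its values placed it (correlations of 0.9945 with INS37217 7 d replicate 2 and of 0.979 or less with the saline 2 h arrays). Values without it are given where they matter. Replicate 1 of every group stood apart from replicates 2 and 3, also for the ribosomal protein genes. The median over the 48 genes was 10.96, 11.33 and 11.45 on the INS37217 2 h arrays (replicates 1, 2 and 3), 11.44, 11.73 and 11.75 at 24 h, and 11.01, 11.52 and 11.57 at 7 d. On the saline arrays it was 10.75, 11.25 and 11.36 at 2 h, 11.35, 11.63 and 11.73 at 24 h, and 10.98, 11.46 and 11.48 at 7 d. Each number thus shows the same order of times in both treatments, lowest at 2 h and highest at 24 h, while replicate 1 lay 0.30 to 0.55 below the mean of the other 2 arrays of its group. Because replicate 1 stood apart in every group, the counts of genes that passed are also given from a model with the replicate number as a block.

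**Figure D1:**
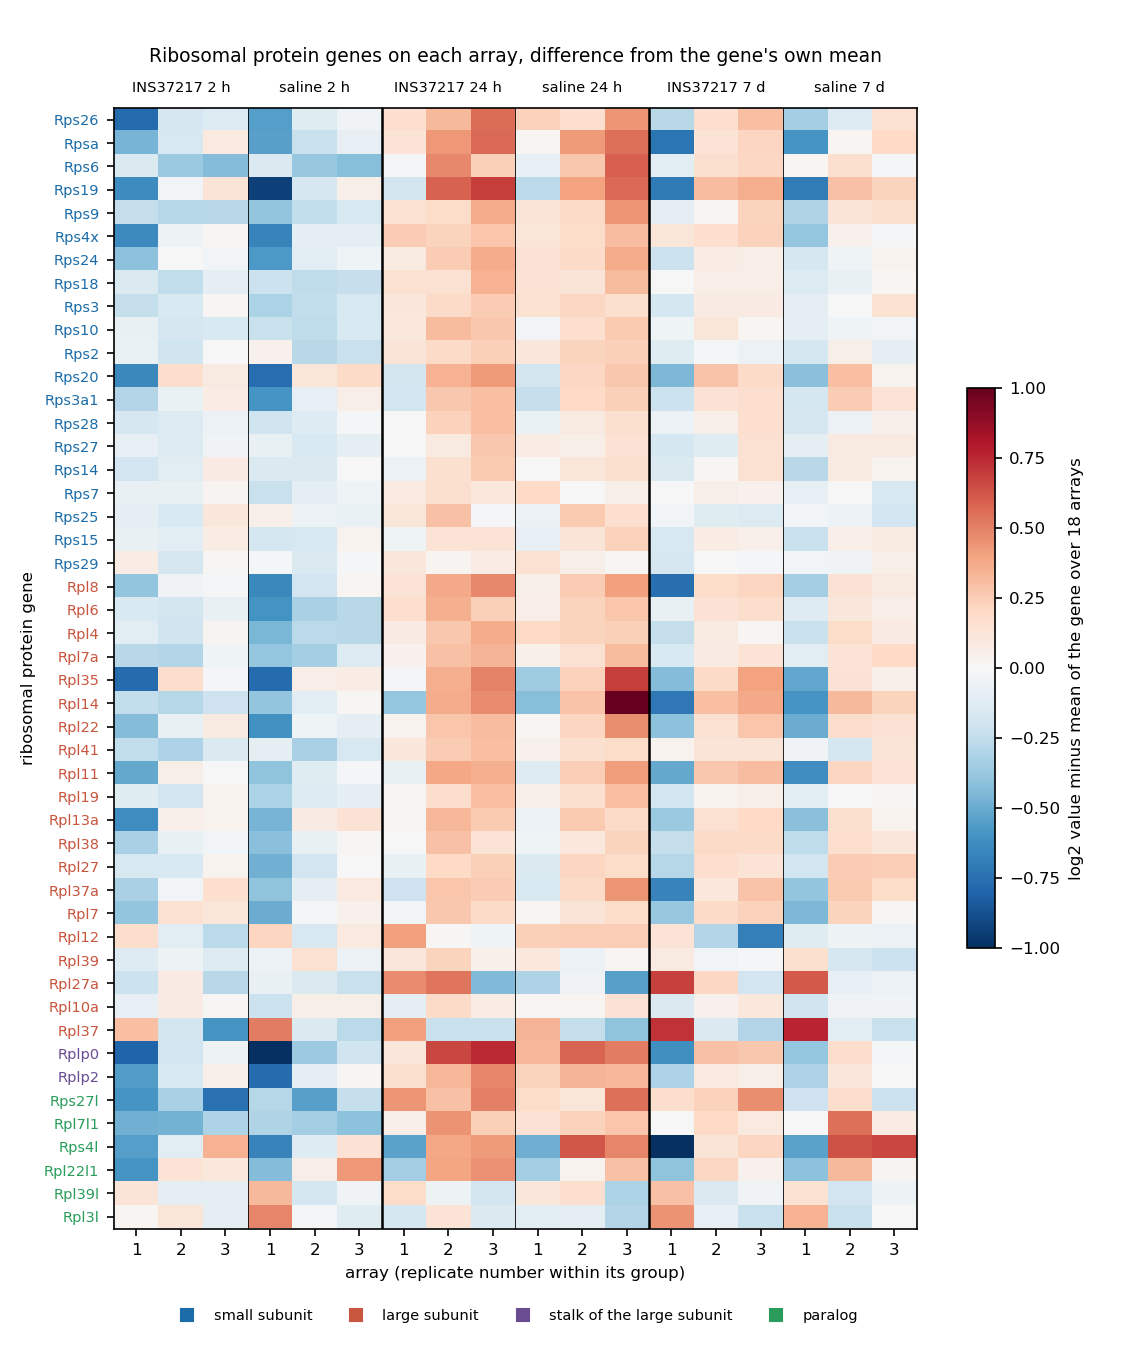
Each row is 1 of the 48 ribosomal protein genes, ordered within its role, and each column 1 array. The colour gives the log2 value minus the gene's own mean over 18 arrays, with colours ending at 1 unit on either side. The 24 h columns are mostly above the gene means in both treatments, the 2 h columns mostly below, and the first array of each group is the lowest for 25 to 41 of the 48 genes.

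At 24 h against 2 h, ribosomal protein mRNAs were higher in both treatments. In INS37217 retinas 47 of the 48 genes had a difference above 0, with a median of 0.32, while the median of all 22626 probe sets was -0.04 and 42.3% of them lay above 0. In saline retinas 43 of the 48 genes were above 0, with a median of 0.34, against -0.04 and 43.8% for all probe sets. At an adjusted p under 0.05, 7 of the 48 genes rose in INS37217 retinas (14.6%, where 3.23% of all probe sets rose) and none fell (3.3% of all probe sets did). In saline retinas 11 rose (22.9%, where 4.65% of all probe sets rose) and none fell (2.93%). With the replicate block the counts were 27 of 48 in INS37217 retinas (56.2%, against 11.6% of all probe sets) and 29 of 48 in saline retinas (60.4%, against 16.1%), again with none lower, where 10.5% and 12.9% of all probe sets were. Over all 100 probe sets of these genes 49 were higher with the block in each treatment, and 1 in INS37217 retinas and 2 in saline retinas were lower: a second probe set of Rps24 in both (-0.42 and -0.37, adjusted p = 0.0152 and 0.026) and one of Rps4x in saline retinas (-0.47, 0.0196). The 3 arrays at 24 h all lay above the 3 at 2 h for 24 genes in INS37217 retinas (9.2% of all probe sets did so) and for 25 genes in saline retinas (12.9%). The shares of all probe sets, here and below, are not matched for level. The median of the 48 genes was 10.75 to 11.75 per array, and that of all probe sets 6.67 to 6.76.

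**Figure D2:**
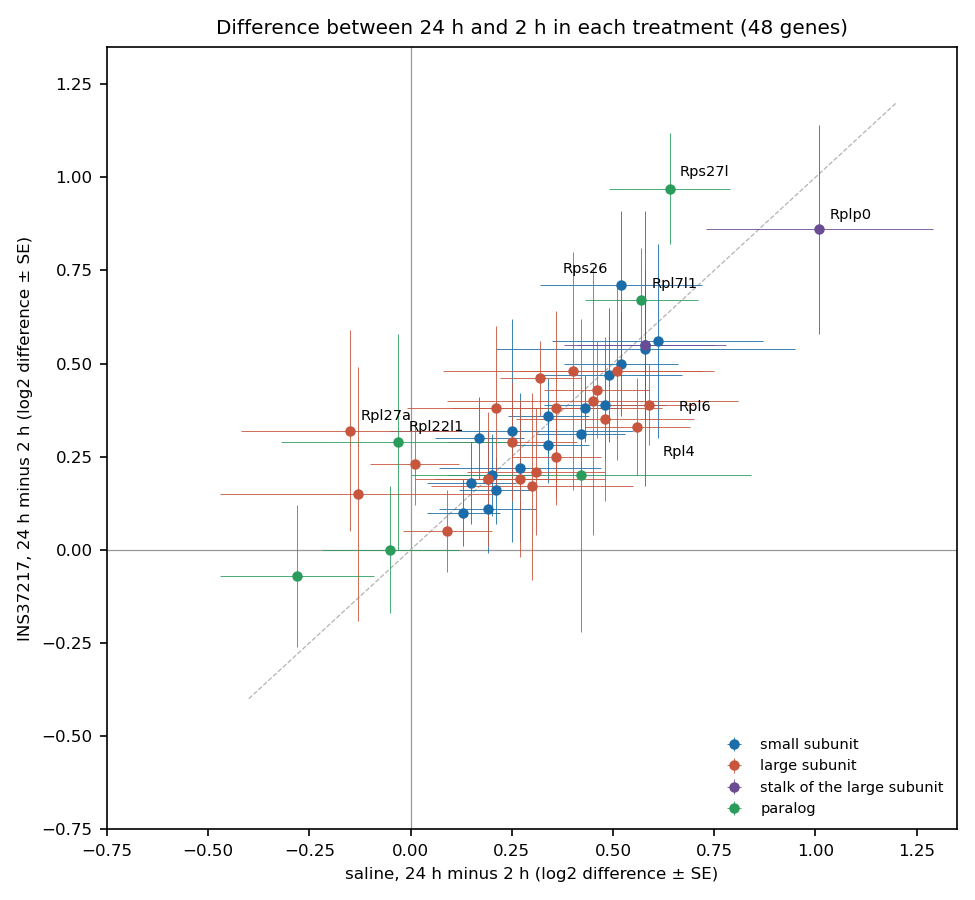
Each point is 1 ribosomal protein gene, with its log2 difference between 24 h and 2 h in saline retinas on the horizontal axis and in INS37217 retinas on the vertical axis. Bars are standard errors of the limma fit and the dashed line marks equal differences. Most points lie in the upper right near the line, with Rplp0 farthest right at 1.01 and Rps27l highest at 0.97.

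The 2 treatments share no array in this comparison, and 44 of the 48 genes had the same sign in both. Across genes, which are not independent of each other, Pearson's r between the differences was 0.80 and Spearman's rho 0.84. Rpl7l1, Rps9, Rps10, Rps18 and Rps27l passed the test in both treatments, out of 13 genes that passed in either. With the block, 24 genes passed in both. These measures of agreement were not taken over all probe sets, so the agreement is not shown to be particular to ribosomal protein genes. Whether the change over time differed between treatments was tested as an interaction: none of the 48 genes passed at 24 h or at 7 d, with or without the block, where 0.0575% and 0.0884% of all probe sets passed without it and 1.07% and 0.835% with it. At an unadjusted p under 0.05 the counts were 0 genes at 24 h (0 with the block) and 1 gene, Rps27l, at 7 d (3 with the block). The share of all probe sets at that unadjusted threshold was not counted. The exception under a left-out array was Rps4l, whose interaction at 7 d was -0.76 (adjusted p = 0.0393) with the block and without INS37217 2 h replicate 2.

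The stalk proteins form the lateral protuberance of the large subunit that recruits the GTPase translation factors, and Rplp0 anchors it. Rplp0 read 10.56, 11.12 and 11.20 in INS37217 retinas at 24 h, against 9.65, 10.26 and 10.40 at 2 h. In saline retinas it read 10.78, 11.03 and 10.96 at 24 h, against 9.39, 10.09 and 10.25 at 2 h. The groups did not overlap in either treatment. The saline difference of 1.01 ± 0.28 (SE; 2.02-fold) had an adjusted p of 0.0387, and 1.53e-06 with the block. The INS37217 difference of 0.86 ± 0.28 (1.81-fold) had an adjusted p of 0.096 without the block and 1.54e-05 with it. Rplp2, the other stalk protein measured, differed by 0.55 (adjusted p = 0.15) in INS37217 retinas and 0.58 (adjusted p = 0.104) in saline retinas, and passed in both only with the block (0.00109 and 0.000502).

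All 20 small subunit genes had a difference above 0 in both treatments, with medians of 0.32 in INS37217 retinas and 0.34 in saline retinas. There, 4 of the 20 rose in INS37217 retinas (Rps9, Rps10, Rps18 and Rps26) and 5 in saline retinas (Rps3, Rps6, Rps9, Rps10 and Rps18); with the block it was 12 in each. Rps18, a protein of the head of the small subunit, read 11.75, 11.75 and 11.94 in INS37217 retinas at 24 h, against 11.45, 11.35 and 11.50 at 2 h. In saline retinas its values were 11.74, 11.72 and 11.91 at 24 h, against 11.38, 11.34 and 11.36 at 2 h. Its arrays at 24 h were thus all higher, by 0.38 (adjusted p = 0.0187) in INS37217 retinas and 0.43 (adjusted p = 0.00817) in saline retinas. Rps9 rose by 0.50 in INS37217 retinas (adjusted p = 0.0347) and 0.52 in saline retinas (adjusted p = 0.0263), and Rps10 by 0.36 (0.0332) and 0.34 (0.0432).

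Rps26, which lines the exit channel for mRNA, read 11.16, 11.31 and 11.55 in INS37217 retinas at 24 h, against 10.22, 10.82 and 10.85 at 2 h. That is a difference of 0.71 ± 0.20 (1.64-fold, adjusted p = 0.0488), with the lowest 24 h array above the highest 2 h array. In saline retinas the difference was 0.52 ± 0.20, with an adjusted p of 0.156, and 0.000925 with the block. Rps6, the small subunit protein phosphorylated by S6 kinase downstream of mTOR, had a probe set of low values. It read 6.33, 6.82 and 6.58 in INS37217 retinas at 24 h, against 6.20, 5.97 and 5.91 at 2 h. The saline values were 6.26, 6.61 and 6.94 at 24 h, against 6.20, 5.96 and 5.92 at 2 h. The difference of 0.55 in INS37217 retinas had an adjusted p of 0.0665 (0.00903 with the block), and Rps6 rose by 0.58 in saline retinas (adjusted p = 0.0471). Rpsa, a small subunit protein also known as the laminin receptor precursor, had differences of 0.56 (adjusted p = 0.295) in INS37217 retinas and 0.61 (adjusted p = 0.193) in saline retinas, and passed with the block at 0.000655 and 0.000202. Rps27 differed by 0.20 in each treatment and passed in neither, also with the block (0.119 and 0.103).

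Among the 20 large subunit genes all 20 lay above 0 in INS37217 retinas, with a median of 0.33, and 18 in saline retinas, with a median of 0.32. In INS37217 retinas Rpl41 alone rose, and in saline retinas Rpl4, Rpl6 and Rpl7a rose; with the block it was 11 and 12 genes. Rpl6, a surface protein of the large subunit, read 11.36, 11.55 and 11.43 in INS37217 retinas at 24 h, against 11.04, 11.01 and 11.12 at 2 h. On the saline arrays it read 11.26, 11.42 and 11.47 at 24 h, against 10.60, 10.87 and 10.92 at 2 h. The groups stood apart in both, with a rise of 0.59 ± 0.11 in saline retinas (1.50-fold, adjusted p = 0.00414) and a difference of 0.39 ± 0.11 in INS37217 retinas (adjusted p = 0.0544, 0.00265 with the block). Rpl4, whose extension lines the tunnel for the growing peptide, rose by 0.56 in saline retinas (adjusted p = 0.0118) and differed by 0.33 in INS37217 retinas (adjusted p = 0.159, 0.0167 with the block). Rpl7a rose by 0.46 in saline retinas (adjusted p = 0.0393), with 0.43 in INS37217 retinas (0.066, and 0.000975 with the block). Rpl41, one of the smallest proteins of the cell, rose by 0.46 in INS37217 retinas (adjusted p = 0.0131), with 0.32 in saline retinas (0.0783, and 0.0141 with the block).

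Rpl11, which as part of a free ribonucleoprotein with Rpl5 can bind the p53 ligase Mdm2, read 11.41, 11.87 and 11.84 in INS37217 retinas at 24 h, against 10.97, 11.54 and 11.48 at 2 h. In saline retinas it read 11.35, 11.73 and 11.90 at 24 h, against 11.08, 11.36 and 11.47 at 2 h. The groups overlapped, although each same-numbered pair was higher at 24 h. The differences of 0.38 (adjusted p = 0.562) in INS37217 retinas and 0.36 (adjusted p = 0.503) in saline retinas passed only with the block (0.013 and 0.0148). Rpl22, which acts with its paralog Rpl22l1 in lymphocyte development, differed by 0.35 in INS37217 retinas (adjusted p = 0.524, 0.0168 with the block) and 0.48 in saline retinas (0.251, and 0.00118). A few large subunit genes went otherwise: Rpl27a differed by 0.32 in INS37217 retinas and -0.15 in saline retinas, and Rpl37 by 0.15 and -0.13, with no call under either model.

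The paralogs were split. Rps27l, a paralog of Rps27 that is a known p53 target, had the largest difference of the 48 genes in INS37217 retinas and the second largest in saline retinas. It read 9.02, 8.87 and 9.08 in INS37217 retinas at 24 h, against 7.99, 8.25 and 7.83 at 2 h. Its saline values were 8.76, 8.70 and 9.13 at 24 h, against 8.29, 8.03 and 8.34 at 2 h. All 24 h arrays were above all 2 h arrays of their treatment, with rises of 0.97 ± 0.15 in INS37217 retinas (1.95-fold, adjusted p = 0.000768) and 0.64 ± 0.15 in saline retinas (1.56-fold, adjusted p = 0.0169). Each of its 3 probe sets passed in both treatments, with differences of 0.94 to 1.12 in INS37217 retinas and 0.61 to 0.85 in saline retinas.

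Rpl7l1, a paralog of Rpl7, read 7.50, 7.89 and 7.68 in INS37217 retinas at 24 h, against 6.96, 6.97 and 7.13 at 2 h. The saline arrays gave 7.59, 7.67 and 7.72 at 24 h, against 7.14, 7.10 and 7.03 at 2 h. The groups were apart, with rises of 0.67 ± 0.14 in INS37217 retinas (adjusted p = 0.00572) and 0.57 ± 0.14 in saline retinas (adjusted p = 0.0166). The other paralogs gave no call without the block. Rpl3l, the muscle form of Rpl3, and Rpl39l, the testis-enriched form of Rpl39, lay near the lower end of the array range, at 3.90 to 4.68 and 3.65 to 4.29 at every time, and differed by -0.07 and 0.00 in INS37217 retinas and by -0.28 and -0.05 in saline retinas. Rpl22l1 differed by 0.29 in INS37217 retinas and -0.03 in saline retinas. Rps4l differed by 0.20 in INS37217 retinas and 0.42 in saline retinas, where it passed with the block only (0.016).

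The calls without the block were few enough to depend on single arrays. Of the INS37217 calls at 24 h against 2 h, Rpl7l1 and Rps27l passed whichever array was left out. The count was 7 without 24 h replicate 1, 3 without 24 h replicate 2, 2 without 24 h replicate 3, 4 without 2 h replicate 1, 2 without 2 h replicate 2 and 4 without 2 h replicate 3. In saline retinas Rpl6 passed in each case, and the count was 10 without 24 h replicate 1, 4 without 24 h replicate 2, 2 without 24 h replicate 3, 5 without 2 h replicate 1, 3 without 2 h replicate 2 and 8 without 2 h replicate 3. With the block, 20 to 27 genes passed in INS37217 retinas and 20 to 26 in saline retinas whichever array was left out. The shares of all probe sets without an array were not counted, here or for the later comparisons.

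Different probe sets of a gene did not always tell the same. In INS37217 retinas the probe sets of Rps4x ran from -0.41 to 0.47, those of Rps24 from -0.42 to 0.56, those of Rps18 from -0.21 to 0.53 and those of Rps10 from -0.13 to 0.53. In saline retinas the ranges were -0.47 to 0.49 for Rps4x, -0.37 to 0.55 for Rps24, -0.18 to 0.51 for Rps18 and 0.04 to 0.53 for Rps10. Of the 48 probe sets used, 15 carry the Affymetrix suffix for probes that can match other transcripts, and ribosomal protein genes have many processed copies. The 102 probe sets shared with other symbols had a median of 0.26 in each treatment, with 93 above 0 in INS37217 retinas and 86 in saline retinas.

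**Figure D3:**
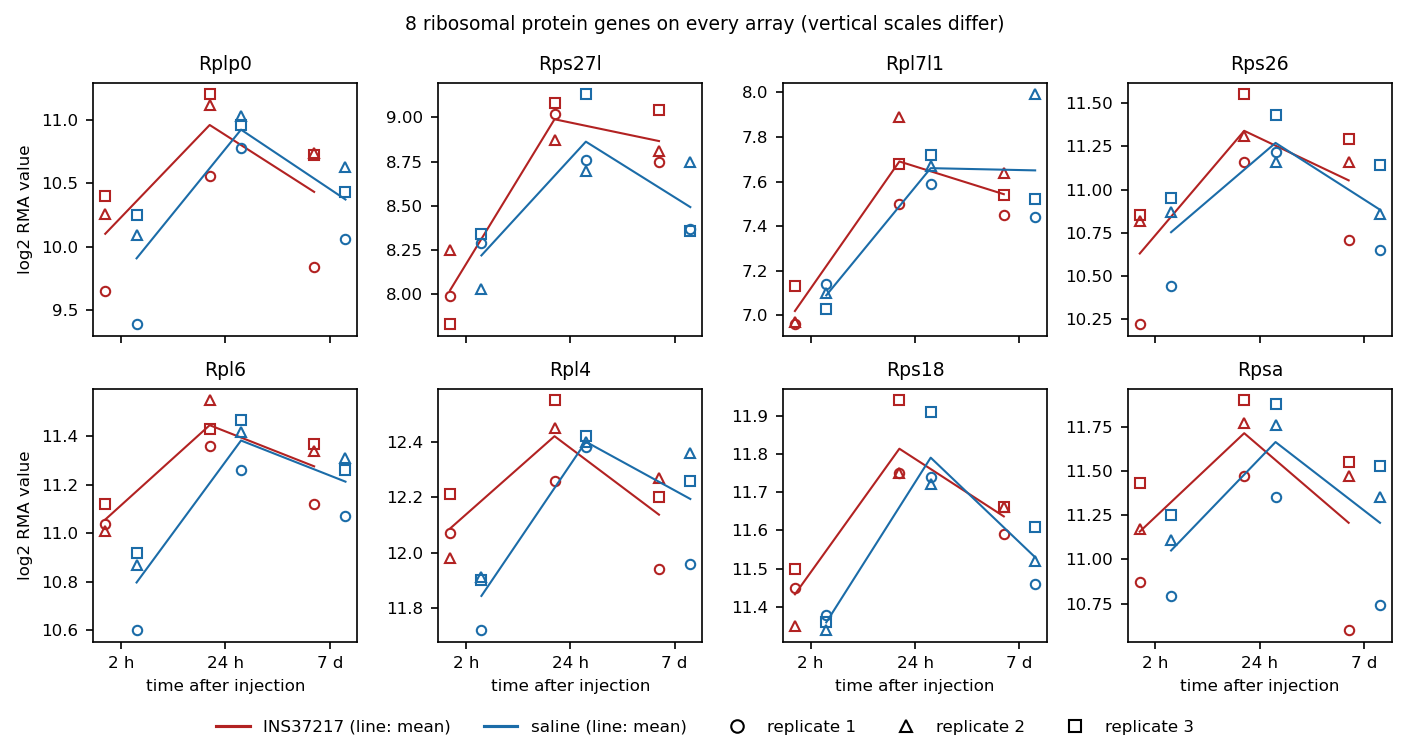
Log2 RMA values of 8 ribosomal protein genes on every array, with time on the horizontal axis, INS37217 in red to the left of saline in blue, marker shape for the replicate number and lines for group means. In each gene the 24 h means are above the 2 h means in both treatments, and replicate 1 is the lowest of its group in all 6 groups for Rpsa.

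At 7 d most of these mRNAs lay between their 2 h and 24 h levels. The group means ran 2 h, 7 d, 24 h from low to high for 38 of the 48 genes in INS37217 retinas and 36 in saline retinas, while 4 and 5 genes were highest at 7 d and 6 in each treatment were lowest at 7 d. The group mean was highest at 24 h for 44 of the 48 genes in INS37217 retinas and 40 of 48 in saline retinas, where 28.0% and 29.6% of all probe sets were highest at that time. At 7 d against 24 h the median was -0.18 in each treatment, with 44 genes below 0 in INS37217 retinas and 42 in saline retinas. The medians of all probe sets were 0.00 and 0.02, and 49.9% and 54.3% of them lay above 0. Without the block no gene passed in either treatment, where 2.21% of all probe sets passed in INS37217 retinas (1.27% fell) and 1.31% in saline retinas (0.977% fell). In limma's fit 3 genes in each had an unadjusted p under 0.05, and with the block 17 in INS37217 retinas and 22 in saline retinas. The share of all probe sets at that unadjusted threshold was not counted, so these counts are not shown to exceed it. With the block 5 genes fell in INS37217 retinas (10.4%, against 4.07% of all probe sets) and 3 in saline retinas (6.25%, against 4.65%), and none rose, where 3.59% and 2.72% of all probe sets did.

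Those that fell with the block in INS37217 retinas were Rplp0 (-0.53, adjusted p = 0.00607), Rpsa (-0.51, 0.00366), Rpl8 (-0.45, 0.0205), Rplp2 (-0.38, 0.0413) and Rps19 (-0.38, 0.0141). In saline retinas they were Rplp0 (-0.55, 0.00546), Rpsa (-0.46, 0.0108) and Rps26 (-0.39, 0.0287). Rplp0 read 9.84, 10.74 and 10.72 in INS37217 retinas at 7 d and 10.06, 10.63 and 10.43 in saline retinas at 7 d. Replicate 1 was thus the low array of both 7 d groups. In saline retinas the 7 d arrays were all below the 24 h arrays, and in INS37217 retinas they overlapped. Without saline 7 d replicate 2, whose labels conflict, 5 genes passed with the block and 0 without it. The saline count with the block was 0 without 24 h replicate 1, and 1 without 7 d replicate 1 or 7 d replicate 3. The INS37217 count with the block was 2 without replicate 1 of either time, and 3 without 24 h replicate 2 or 24 h replicate 3.

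At 7 d against 2 h the median was 0.13 in INS37217 retinas, with 42 of 48 genes above 0, and 0.15 in saline retinas, with 41 above 0. Of all probe sets 42.6% and 47.4% lay above 0. Rps27l and Rpl7l1 rose in INS37217 retinas (4.17% of the genes, against 2.51% of all probe sets), and Rpl7l1 and Rpl6 in saline retinas (4.17%, against 2.7%). With the block, 6 genes rose in INS37217 retinas (12.5%, against 9.21%) and 10 in saline retinas (20.8%, against 12.3%), and none fell, where 8.68% and 9.59% of all probe sets did. Rps27l read 8.75, 8.81 and 9.04 in INS37217 retinas at 7 d and 8.37, 8.75 and 8.36 in saline retinas at 7 d. Against the 2 h arrays given above it had risen by 0.84 ± 0.15 in INS37217 retinas (1.79-fold, adjusted p = 0.00308), and in saline retinas the difference was 0.27 ± 0.15 (adjusted p = 0.436, 0.179 with the block). The interaction of 0.57 ± 0.22 between these had an unadjusted p of 0.019 and an adjusted p of 1.0 (0.261 with the block), so the treatments were not shown to differ. Rpl7l1 rose by 0.52 ± 0.14 in INS37217 retinas (adjusted p = 0.0355) and 0.56 ± 0.14 in saline retinas (0.0231). Its saline 7 d arrays read 7.44, 7.99 and 7.52, the high one being the array with conflicting labels. Without that array no gene passed in saline retinas (4 with the block, and 5 with the block without saline 2 h replicate 2).

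**Figure D4:**
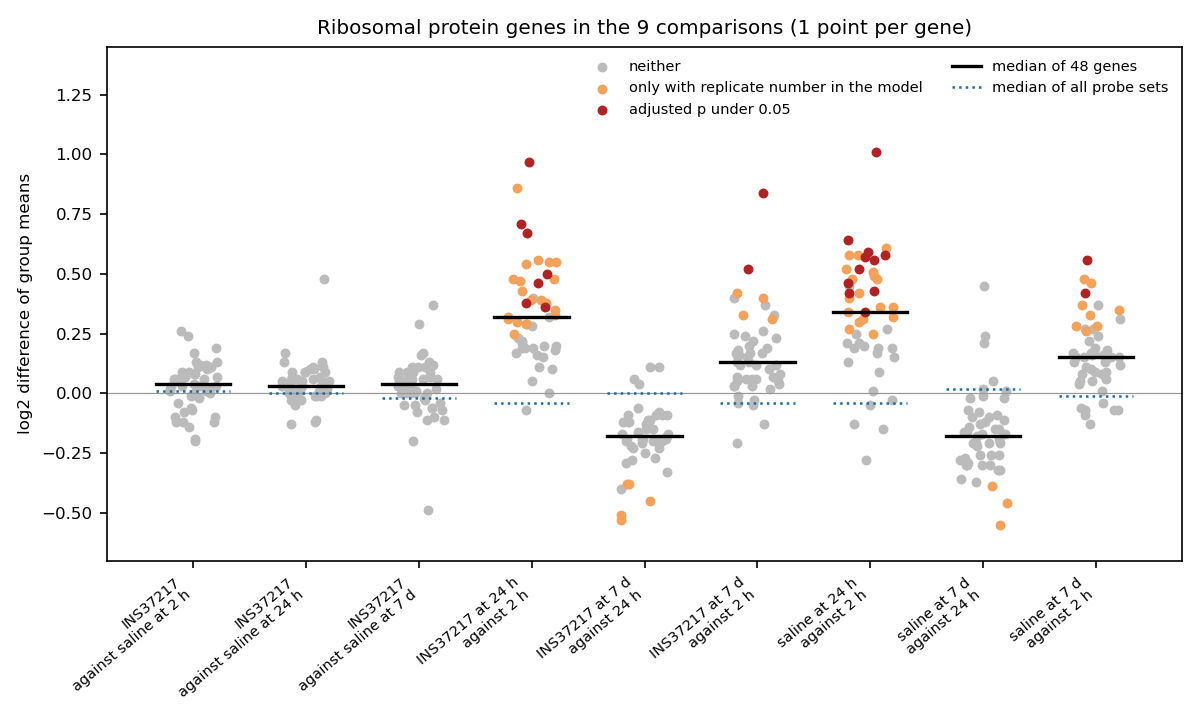
Log2 differences of the 48 ribosomal protein genes (1 point each) in 9 comparisons, with the median of the 48 as a black bar and the median of all probe sets as a dotted line. Red points passed at an adjusted p under 0.05 and orange points only with the replicate number in the model. The 3 comparisons of INS37217 with saline hold no coloured point, and the coloured points at 24 h against 2 h are all above 0.

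INS37217 against saline at the same time gave no ribosomal protein gene past the threshold at 2 h, 24 h or 7 d, with or without the block, where 0.128%, 0.119% and 0.15% of all probe sets passed in either direction without it and 1.76%, 0.888% and 0.641% with it. At an unadjusted p under 0.05 the counts were 1, 0 and 1 of 48 genes (2, 1 and 3 with the block), and the share of all probe sets at that threshold was not counted. The medians were 0.04, 0.03 and 0.04, against 0.01, 0.00 and -0.02 for all probe sets. Above 0 lay 32, 35 and 32 of the 48 genes, where 52.2%, 49.0% and 42.7% of all probe sets did. The 48-gene median of an array is another measure. At 2 h it averaged 11.25 in INS37217 retinas and 11.12 in saline retinas. The averages were 11.64 and 11.57 at 24 h, and 11.37 and 11.31 at 7 d. Its SD between arrays was 0.257 within groups, and 0.065 with group and replicate number removed. These SDs are of single arrays and not of a difference of group means. Leaving out single arrays put the median of the gene differences below 0 in 1, 2 and 3 of 6 cases. The ranges were -0.05 to 0.10 at 2 h, -0.02 to 0.12 at 24 h and -0.08 to 0.13 at 7 d.

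Within a replicate number the array medians given above were higher with INS37217. From unrounded values, INS37217 minus saline was 0.21, 0.08 and 0.09 for replicates 1, 2 and 3 at 2 h, 0.09, 0.11 and 0.02 at 24 h, and 0.03, 0.06 and 0.09 at 7 d. All 9 pairs were above 0, where the median of all probe sets was above 0 in 5 of the 9 pairs. This is a description of a median over chosen genes and was not tested.

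The differences were small for each gene too. At 2 h the largest were those of Rpl6 (0.26 ± 0.11, unadjusted p = 0.037), Rpl4 (0.24 ± 0.13) and Rps27l (-0.20 ± 0.15). For Rpl6 and Rpl4 the INS37217 arrays were all above the saline arrays, as 4.61% of all probe sets were. Rpl4 read 12.07, 11.98 and 12.21 in INS37217 retinas, against 11.72, 11.91 and 11.90 in saline retinas. At 24 h the largest were Rpl27a (0.48 ± 0.27), Rpl22l1 (0.17 ± 0.29) and Rpl14 (-0.13 ± 0.36). Rpl27a read 7.18, 7.24 and 6.26 in INS37217 retinas, against 6.40, 6.67 and 6.16 in saline retinas, and the groups overlapped. At 7 d they were Rps4l (-0.49 ± 0.42), Rps27l (0.37 ± 0.15, unadjusted p = 0.028) and Rps4x (0.29 ± 0.18). Each had an adjusted p of 1.0 without the block and 0.102 to 0.849 with it.

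The sequence around the transcription start is shown for genes that passed at 24 h in both treatments and for Rplp0 and Rps6, to show which begin with a TOP tract. Windows of RefSeq (GRCm38.p6) were found for 42 of the 48 genes. Each line gives 30 bases before and 15 bases from the annotated start, 5′ to 3′ on the strand of the gene, with the tract in capitals where the start is a C followed by at least 4 of C or T.
Rps10, chr17:27635230-27635274, minus strand: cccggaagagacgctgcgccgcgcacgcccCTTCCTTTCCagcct
Rps18, chr17:33955651-33955695, minus strand: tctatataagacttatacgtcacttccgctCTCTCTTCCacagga
Rps6, chr4:86857353-86857397, minus strand: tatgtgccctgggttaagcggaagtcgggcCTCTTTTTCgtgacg
Rps9, chr7:3704011-3704055, plus strand: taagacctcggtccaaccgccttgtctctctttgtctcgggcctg
Rplp0, chr5:115559437-115559481, plus strand: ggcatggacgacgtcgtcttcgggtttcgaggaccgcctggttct
Rpl7l1, chr17:46782642-46782686, minus strand: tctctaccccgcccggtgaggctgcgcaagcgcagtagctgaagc
Rps27l, chr9:66946056-66946100, plus strand: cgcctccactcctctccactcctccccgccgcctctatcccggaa

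Tracts of 10, 9 and 9 bases open Rps10, Rps18 and Rps6 at the annotated start, and the other windows have none at that base. Rps27l has another annotated start, also without a tract. Over all windows of these genes, 8 of 50 (16.0%) had the tract, against 2.51% of 32851 windows of the genome. TTCCGG, the core bound by ETS factors, was searched on both strands from 250 bases before to 50 bases after the start and was present in 56.0% of the 50 windows, against 14.9% of all. TATAAA, searched in the same way, was present in 12%, against 13.6%. A match is a description of the letters only. Because the tract was looked for at the annotated base alone, a start annotated a few bases off would miss it.

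Genes that make ribosomes or work with them were described from lists of known members. In ribosome biogenesis (42 genes) the median at 24 h against 2 h was 0.24 in each treatment. Of these, 2 rose in INS37217 retinas and 1 in saline retinas, 4.76% and 2.38% of the list, against 3.23% and 4.65% of all probe sets, and none fell. With the block 12 rose in INS37217 retinas (28.6%, against 11.6% of all probe sets) and 18 in saline retinas (42.9%, against 16.1%). Rrp1b, a nucleolar protein of ribosomal RNA processing, read 9.62, 9.71 and 9.63 in INS37217 retinas at 24 h, against 9.14, 9.16 and 9.24 at 2 h. It rose by 0.47 (adjusted p = 0.00306), and in saline retinas by 0.30 (adjusted p = 0.0491). At 7 d against 24 h it fell by 0.70 in INS37217 retinas (adjusted p = 0.000208) and by 0.73 in saline retinas (0.000222). The helicase Ddx18 was the other gene that rose in INS37217 retinas, by 0.45 (adjusted p = 0.0153). At 7 d against 24 h the medians of the list were -0.30 and -0.24, with 16 and 11 genes lower with the block (38.1% and 26.2%, against 4.07% and 4.65% of all probe sets) and 1 in each without it (2.38%, against 1.27% and 0.977%).

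**Figure D5:**
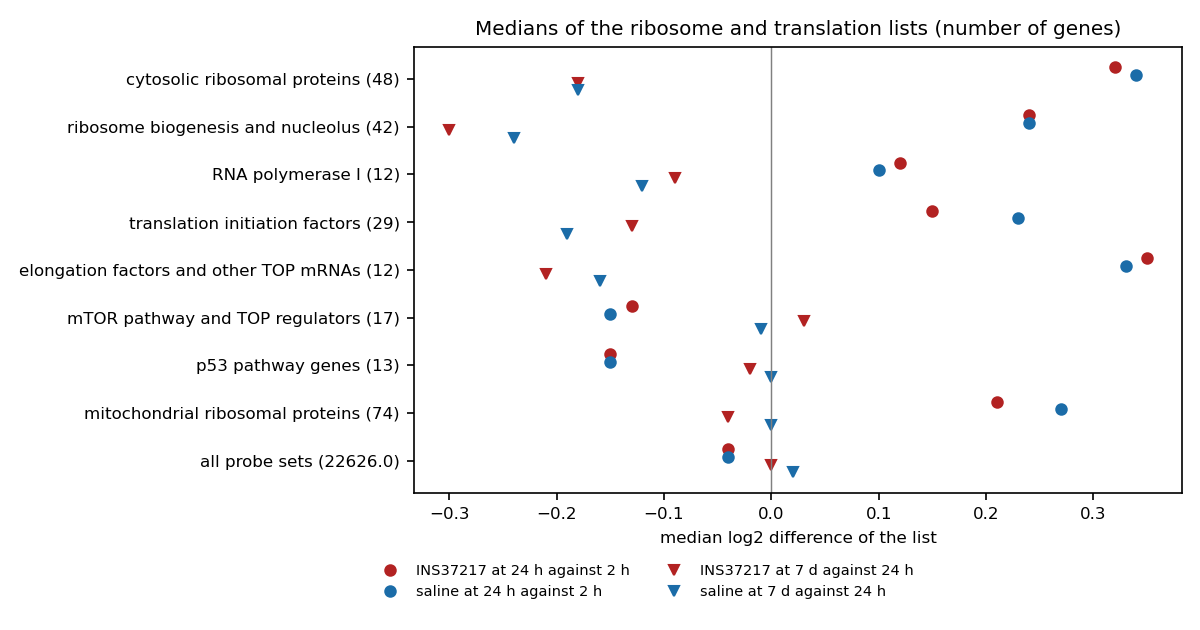
Median log2 difference of the ribosomal protein genes, of 7 related lists (number of measured genes in brackets) and of all probe sets, with circles for 24 h against 2 h, triangles for 7 d against 24 h, INS37217 in red above saline in blue. At 24 h against 2 h the ribosomal protein medians are 0.32 and 0.34, those of mitochondrial ribosomal proteins 0.21 and 0.27, and those of all probe sets -0.04.

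Of 29 translation initiation factors, 1 rose in INS37217 retinas (3.45%, near the 3.23% of all probe sets), Eif4a1, the helicase of the cap-binding complex, by 0.75 (adjusted p = 0.0499). In saline retinas 4 rose, 13.8% against 4.65% of all probe sets. They were Eif1ax by 0.94, Eif4a1 by 0.93, Eif2b1 by 0.41 and Eif2s3x by 0.36 (adjusted p of 0.0217, 0.0134, 0.0292 and 0.029). Eif4g3 fell by 0.41 (adjusted p = 0.0365), which is 3.45% of the list against 2.93% of all probe sets. With the block 6 rose in INS37217 retinas (20.7%, against 11.6%) and 1 fell (3.45%, against 10.5%). In saline retinas 12 rose with the block (41.4%, against 16.1%) and 1 fell (3.45%, against 12.9%). The medians were 0.15 and 0.23. Of 12 elongation factors and other products of TOP mRNAs, 1 rose in each treatment (8.33%, against 3.23% and 4.65% of all probe sets). In INS37217 retinas it was Eef1a1, which brings aminoacyl-tRNA to the ribosome, by 0.40 (adjusted p = 0.0218). In saline retinas it was the poly(A)-binding Pabpc1, by 0.49 (adjusted p = 0.0471). With the block 7 rose in each (58.3%, against 11.6% and 16.1% of all probe sets), and the medians of 0.35 and 0.33 were near those of the ribosomal proteins. None of 12 RNA polymerase I genes passed at 24 h against 2 h without the block. With it, 3 and 4 were higher (25.0% and 33.3%, against 11.6% and 16.1% of all probe sets). Lower were 0 and 1 (0.0% and 8.33%, against 10.5% and 12.9%). Their medians were 0.12 and 0.10.

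The 74 mitochondrial ribosomal proteins, which belong to a separate ribosome, had medians of 0.21 in INS37217 retinas and 0.27 in saline retinas at 24 h against 2 h. Mrps25 alone rose in both treatments without the block, by 1.50 (adjusted p = 0.00264) and 1.31 (0.00724), 1 of 74 and a smaller share than the 3.23% and 4.65% of all probe sets. With the block, 21 rose (28.4%, against 11.6%) and 2 fell (2.7%, against 10.5%) in INS37217 retinas. In saline retinas 31 rose with the block (41.9%, against 16.1%). At 7 d against 24 h their medians were -0.04 and 0.00, where those of the cytosolic ribosomal proteins were -0.18 in each treatment. That difference between the lists was not tested.

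Among 17 genes of the mTOR pathway and of TOP control the medians were -0.13 in INS37217 retinas and -0.15 in saline retinas. Eif4ebp1, a repressor of cap-dependent translation that mTOR inactivates, read 7.32, 7.72 and 7.72 in INS37217 retinas at 24 h, against 6.34, 6.50 and 6.57 at 2 h. In saline retinas it read 7.14, 7.08 and 7.87 at 24 h, against 6.43, 6.51 and 6.35 at 2 h. All arrays at 24 h were higher, with rises of 1.12 (2.17-fold, adjusted p = 0.00225) and 0.93 (1.91-fold, adjusted p = 0.00881). No other gene of the list passed at this comparison without the block. The share that rose was thus 5.88% of the list in each treatment, near the 3.23% and 4.65% of all probe sets. With the block it was again 5.88% in each, against 11.6% and 16.1%. The share that fell with the block was 0.0% in INS37217 retinas and 11.8% in saline retinas, against 10.5% and 12.9%. Myc, a transcription factor that drives ribosome production, fell at 7 d against 24 h by 0.65 in INS37217 retinas (adjusted p = 0.0175) and 0.66 in saline retinas (0.0256). Eif4ebp1 fell there in saline retinas (-0.87, 0.0452), with -0.76 in INS37217 retinas (0.0698). These falls were 5.88% (INS37217) and 11.8% (saline) of the list, against 1.27% and 0.977% of all probe sets. With the block 11.8% fell in each, against 4.07% and 4.65%. At 7 d against 2 h Myc fell in INS37217 (-0.83, 0.00163) and saline retinas (-0.71, 0.00587). Larp1 fell in saline retinas (-0.55, 0.00504), with -0.28 in INS37217 retinas (0.187). In the p53 pathway the calls without the block were all lower. Of its 13 genes, 4 fell in INS37217 retinas at 24 h against 2 h (Btg2 at -1.46, Cdkn1a at -1.20, Fas at -0.93 and Sesn1 at -0.55) and 3 in saline retinas (Btg2 at -2.16, Cdkn1a at -0.93 and Fas at -0.46), and none rose. These are 30.8% and 23.1% of the list, where 3.3% and 2.93% of all probe sets fell. With the block 6 fell in INS37217 retinas (46.2%, against 10.5%) and 5 in saline retinas (38.5%, against 12.9%). In each treatment 2 rose with the block (15.4%, near the 11.6% and 16.1% of all probe sets). Rps27l, itself a p53 target, rose in both treatments.

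Other measures moved with time as well. The difference between the 3′ and 5′ probe sets of beta-actin, a sign of RNA integrity, was 0.747 ± 0.042 in INS37217 retinas and 1.04 ± 0.09 in saline retinas at 2 h (SD, n = 3 each), 0.623 and 0.610 at 24 h, and 0.603 and 0.650 at 7 d. The mean of 7 microglia and macrophage markers was 6.05 in INS37217 retinas and 6.06 in saline retinas at 2 h, 6.89 and 6.49 at 24 h, and 7.86 and 7.23 at 7 d, with array ranges at 24 h of 6.88 to 6.90 and 6.44 to 6.53. At 24 h against 2 h 4 of the 7 rose in INS37217 retinas and 2 in saline retinas, where 3.23% and 4.65% of all probe sets rose. The mean of these markers was highest at 7 d in each treatment. The mean of 6 lens markers was 11.81 in INS37217 retinas and 11.17 in saline retinas at 2 h. It was 11.81 and 11.85 at 24 h, and 12.12 and 12.04 at 7 d. At 24 h against 2 h 5 of the 6 rose in saline retinas (4.65% of all probe sets did) and 0 in INS37217 retinas (3.23%). For INS37217 against saline at 2 h 2 of the 6 were higher, where 0.128% of all probe sets passed in either direction. Over 5 fibroblast markers it was 5.68 and 6.03 at 2 h, 6.39 and 6.29 at 24 h, and 7.38 and 6.35 at 7 d. Mueller glia, the radial support cells of the retina, had 4 markers with a mean of 9.43 in INS37217 retinas and 9.36 in saline retinas at 2 h, 8.86 and 9.06 at 24 h, and 9.82 and 9.89 at 7 d. In each treatment 2 of the 4 fell at 24 h against 2 h, where 3.3% (INS37217) and 2.93% (saline) of all probe sets fell. At 7 d against 24 h 2 rose in each, where 2.21% and 1.31% of all probe sets passed in either direction. The mean of the Mueller glia markers was lowest at 24 h. The mean of 4 pigment epithelium markers was 8.07 and 8.45 at 2 h, 8.30 and 8.45 at 24 h, and 9.11 and 9.21 at 7 d in INS37217 and saline retinas, and that of 3 erythrocyte markers was 5.85 and 6.40, 5.38 and 5.61, and 5.34 and 5.33. The part of RNA integrity, of rods and of these other cells in the ribosomal protein differences was not tested.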

How the data were processed

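Each of the 18 arrays had 22690 probe sets. Tests ran on 22626 of them, without 64 controls. The authors' deposited values are log2 RMA values per the submitters' processing notes, and run from 2.83 to 14.15. No version of RMA is named there. Nothing was normalized again for the main results. Symbols came from the platform's probe-to-gene table (20380 probe sets with 1 gene, 691 with several, 1555 with none), and all 48 genes matched RefSeq.

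The limma package (3.58.1, R 4.3.3) fitted 6 group means to all 18 arrays with lmFit and eBayes. Benjamini-Hochberg adjustment ran over all 22626 probe sets, with a threshold of 0.05. Every p in the text is limma's. With group means removed, the 45 same-numbered pairs of arrays correlated at 0.426 to 0.921. Replicate 2 with replicate 3 of another group correlated at 0.363 to 0.725, a range that overlaps. Replicate 1 with replicate 2 or 3 of another group gave -0.847 to -0.501. These values set replicate 1 apart and do not clearly separate numbers 2 and 3. The labels do not say what the numbers stand for, and the model without the block was kept as the main one. The labels name separate pools as replicates. The number of arrays limits the precision.

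The ribosomal protein genes and the other lists were chosen with earlier results of these data known. Named are, for each comparison, up to 5 genes per direction that passed with ranges apart, or else the 3 of largest difference, some core proteins and paralogs always, and up to 4 of each other list; others are given as values. The steps were tested on simulated data. Alternatives were quantile normalization, equal array medians, a level filter, eBayes with trend, only the groups compared, replicates 2 and 3 alone, probe-set means, the replicate block and leaving out each array. Raw image files were not used here.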

Additional observations from a re-analysis of the deposited data

How the results depend on the processing

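The medians of the 48 genes over time kept their direction in every alternative, while those of INS37217 against saline, all near 0, fell below 0 without some single arrays (lowest -0.05 at 2 h, -0.02 at 24 h and -0.08 at 7 d). No gene passed for INS37217 against saline under any alternative. For the interactions the exception was 1 gene at 7 d, with the block and without INS37217 2 h replicate 2. The counts of ribosomal protein genes that passed moved most. With the replicate block they were 27 (INS37217) and 29 (saline) at 24 h against 2 h, 5 and 3 at 7 d against 24 h, and 6 and 10 at 7 d against 2 h. With only replicates 2 and 3 they were 21 and 26, 2 and 1, and 8 and 9, and with the replicate block on those arrays, an alternative chosen after seeing the data, 22 and 28, 2 and 2, and 9 and 10. Fitting the compared groups alone gave 2 and 3 at 24 h against 2 h, and 1 and 0 at 7 d against 2 h. The mean of a gene's probe sets gave 4 (INS37217, 24 h against 2 h), and 1 and 1 at 7 d against 2 h. Equal array medians gave 7 (saline, 24 h against 2 h) and 1 (saline, 7 d against 2 h), and eBayes with trend and robust 1 in the last. Leaving out each array in turn gave 2 to 7 and 2 to 10 at 24 h against 2 h, 1 to 2 and 0 to 3 at 7 d against 2 h, and 0 elsewhere. With the block, an alternative also added after seeing the data, it gave 20 to 27 and 20 to 26 at 24 h against 2 h, 2 to 4 and 0 to 5 at 7 d against 24 h, 4 to 8 and 4 to 9 at 7 d against 2 h, and 0 to 1 for the interaction at 7 d. The medians of the 48 genes at 24 h against 2 h stayed at 0.26 to 0.42 (INS37217) and 0.25 to 0.43 (saline). The share of all probe sets that passed was counted only for the main model and the replicate block on all arrays. Movements of the counts under the other alternatives are therefore not shown to be particular to ribosomal protein genes. The cause of these movements was not tested.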
